A study of Solanum pimpinellifolium with 6 samples.

Results

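The 10 genes described here encode the enzymes that close the rings of lycopene and turn the resulting carotenes into xanthophylls. They were taken by gene identifier from a list drawn up with earlier results of these data known, as 10 of the 34723 genes with values in the deposited table, and all 10 were found there. They are LCYB1 (Solyc04g040190), CYCB (Solyc06g074240), LCYE (Solyc12g008980), BCH1 (Solyc06g036260), BCH2 (Solyc03g007960), CYP97A29 (Solyc04g051190), CYP97C11 (Solyc10g083790), ZEP (Solyc02g090890), VDE (Solyc04g050930) and NXD1 (Solyc12g041880). The table names an enzyme for 7 of them, lists both CYP97 genes only as cytochrome P450, and lists NXD1 as homologous to an unknown gene. RNA sequencing was done on fruits taken 2 days post anthesis (dpa), after hand pollination, from Solanum pimpinellifolium plants, a wild currant tomato, of strain LA1589 and about 2 months old. By the labels, 3 libraries came from transgenic RNAi line 207, a single line aimed at the zinc finger transcription factor gene SlZFP2, and 3 came from its nontransgenic sibling, whose genotype is given as wild type. The promoter that drives the RNAi construct was not stated in the labels. By the series design, fruit set and the synthesis of the hormone abscisic acid (ABA) are impaired in line 207, and the comparison asks which transcripts differ between the genotypes.

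Lycopene is the branch point of carotenoid synthesis in plants. A beta-cyclase working at both ends gives beta-carotene, whereas an epsilon-cyclase working together with a beta-cyclase gives alpha-carotene. Hydroxylases then make zeaxanthin from beta-carotene and lutein from alpha-carotene. Zeaxanthin is epoxidised to violaxanthin, violaxanthin is converted to neoxanthin, and cleavage of the 9-cis forms of these epoxides starts the synthesis of ABA. In green tissue the xanthophylls sit in the light-harvesting complexes and protect them from excess light, and in tomato petals they accumulate as yellow pigment.

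The labels were checked on the gene that the RNAi construct targets. SlZFP2 (Solyc07g053570) had 10.3, 9.03 and 7.45 FPKM (fragments scaled by gene length and by library size) in the libraries labelled line 207, against 2.89, 3.05 and 0.00147 FPKM in the libraries labelled sibling. Every library labelled line 207 lay above every labelled sibling, the opposite of what silencing would give, although the difference did not pass over all genes (limma adjusted p = 0.112). Whether the fragments come from the gene itself or from the RNAi construct, and whether labels were exchanged, was not tested. Each direction below is therefore a direction between labels. The extraction protocol speaks of shoot tips, whereas each sample is labelled as fruits. Of 4 genes listed as markers of the young fruit, TAG1 was above 1 FPKM in every library, whereas CRC and AGL11 were at or near 0 in 5 of 6. TAG1 had 60.6, 64.5 and 90.6 FPKM in labelled line 207 and 16.7, 21.9 and 24.4 FPKM in the labelled siblings, and it was higher in labelled line 207 (log2 fold change 1.72, limma adjusted p = 0.00877). The summed level of the 4 was 90.6 to 135 FPKM in labelled line 207 and 21.9 to 63.7 FPKM in the labelled siblings. The sum of this list was thus carried by TAG1 and, in 4 of 6 libraries, by TAGL1. It does not by itself show which tissue was taken, or how much of it. The shoot tip markers TKN1 and TKN2 summed to 5.9 to 8.9 FPKM in labelled line 207 and to 6.61 to 22.8 FPKM in the labelled siblings. The groups overlapped for them. The petal and stamen genes TAP3, TM6, GLO1 and GLO2, a list added after the data were seen, summed to 173 to 176 FPKM in labelled line 207 and to 149 to 161 FPKM in the labelled siblings, with GLO2 listed at 0 in 4 of 6 libraries. The pollen gene LAT52 was at 6.71 to 8.24 FPKM in labelled line 207 and at 7.58, 37.2 and 39.4 FPKM in the labelled siblings. Read totals are unknown. Depth relative to sibling replicate 1 was estimated from genes at low values, as the inverse of their most common ratio to that library. The estimate was 0.386, 0.5 and 0.785 in line 207 replicates 1 to 3 and 0.798 and 0.856 in sibling replicates 2 and 3.

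Of the 10 genes, 9 had a value of at least 1 FPKM in 3 or more libraries and were tested. BCH2 was the 1 that passed, and it was higher in labelled line 207 (limma on log2(FPKM + 1), Benjamini-Hochberg adjusted p at most 0.05 over 15766 genes). That is 11.1% of the 9, beside 10.1% of all tested genes (5.01% higher and 5.04% lower), so the number called in the group is near the background. The groups of libraries did not overlap for 5 of the 9, with BCH2 and CYP97A29 above and CYP97C11, ZEP and VDE below in labelled line 207. Over all tested genes 33.2% did not overlap, 15.6% above and 17.6% below. The median log2 fold change was -0.04 for the 9 genes and -0.09 for all tested genes. In bulk fruits, fewer cells of a type and less RNA per cell cannot be told apart for any of these genes.

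**Figure D1:**
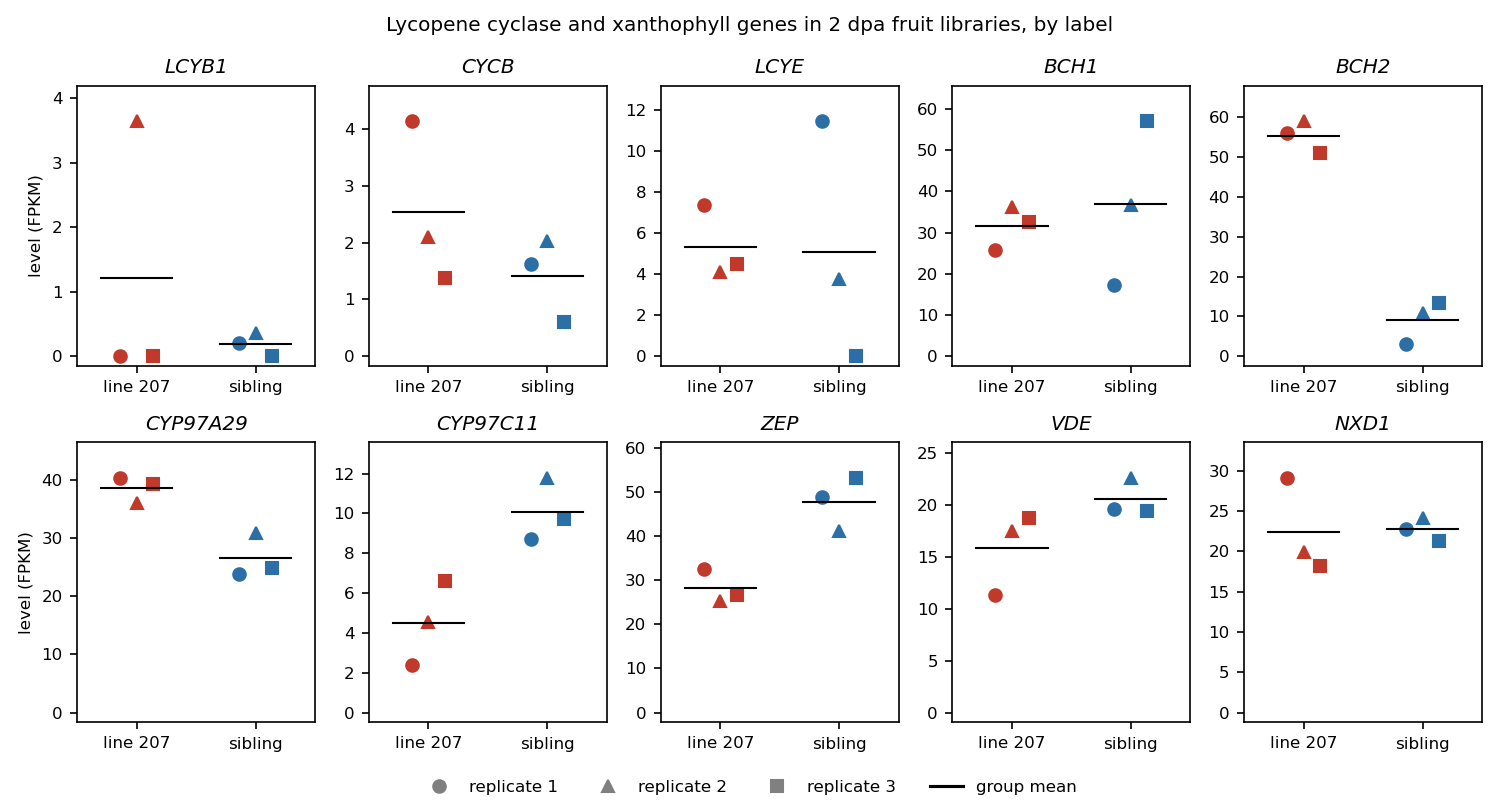
Level (FPKM, linear axis) of each of the 10 genes in each library, with labelled line 207 left and labelled sibling right, marker shape for the replicate number and a bar for the group mean (n = 3 each). The BCH2 values of labelled line 207 lie between 51.1 and 59.0 FPKM, above all labelled siblings, while LCYB1 stays under 4 FPKM in every library.

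The hydroxylases of the beta ring gave the widest contrast among the members. BCH1 and BCH2 are non-heme di-iron beta-carotene hydroxylases. BCH2 is the form associated with flowers in tomato, where its loss gives the white-flower phenotype, and BCH1 is the form associated with leaves. BCH2 had 56.1, 59.0 and 51.1 FPKM in labelled line 207, against 2.97, 10.8 and 13.5 FPKM in the labelled siblings. All 3 libraries labelled line 207 were far above the highest sibling, and sibling replicate 1 was the lowest of all. The group means were 55.4 ± 4.02 FPKM in labelled line 207 and 9.09 ± 5.46 FPKM in the labelled siblings (SD, n = 3 each), a 6.09-fold difference. The log2 fold change was 2.68 ± 0.49 (SE; 95% interval 1.53 to 3.83; limma adjusted p = 0.0189). The authors' deposited table gives BCH2 a q-value of 0.000439. By that table's q-values of at most 0.05, 2 members passed, BCH2 and ZEP, beside 28.4% of the genes it tested. LCYB1, CYCB, LCYE and CYP97C11 carry its mark for untested genes, so only the remaining members can be set against that share. BCH2 therefore passed by both tests, but its limma call needed all 3 libraries labelled line 207. It was lost when line 207 replicate 1, 2 or 3 was left out (adjusted p = 0.0639, 0.0703 and 0.0607), with log2 fold changes of 2.63 to 2.73, and kept without each labelled sibling. It was also lost with no filter on low values (adjusted p = 0.0571).

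BCH1 did not follow BCH2. It had 25.8, 36.3 and 32.6 FPKM in labelled line 207 and 17.4, 36.7 and 57.0 FPKM in the labelled siblings. The sibling values spanned the line 207 values on both sides. The log2 fold change was -0.09 (95% interval -1.08 to 0.91; limma adjusted p = 0.919), and the sign turned when line 207 replicate 1 or sibling replicate 3 was left out. Both hydroxylases had their lowest value in sibling replicate 1.

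Set against each other within a library, which removes any scaling between libraries, BCH2 made up 68.4%, 61.9% and 61.1% of the summed FPKM of BCH1 and BCH2 in labelled line 207. In the labelled siblings it made up 14.6%, 22.8% and 19.1%. BCH2 was thus the larger share in every library labelled line 207 and the smaller share in every labelled sibling. The difference of means was 45.0 percentage points, with an exact two-sided permutation p = 0.1, the smallest that 3 against 3 libraries allow. It stayed between 42.7 and 47.0 points whichever library was left out. The 2 genes together summed to 87.0 ± 7.32 FPKM in labelled line 207 and to 46.1 ± 25.1 FPKM in the labelled siblings (SD, n = 3 each). The petal and stamen genes TAP3 and TM6 did not pass between the labels (limma adjusted p = 0.946 and 0.366), with log2 fold changes of 0.03 and 0.35. GLO1, of the same list, had 2.70, 8.38 and 7.75 FPKM in labelled line 207 and 0.987, 2.60 and 2.36 FPKM in the labelled siblings. Its groups did not overlap, and its log2 fold change of 1.22 did not pass (limma adjusted p = 0.242). The summed level of the petal and stamen genes was the higher one in every library labelled line 207, as was the level of TAG1, of the young fruit list. Their part in the BCH2 difference was not tested.

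The P450 hydroxylases pointed in opposite directions, and neither passed the test. CYP97A29 belongs to the class that hydroxylates the beta ring, and CYP97C11 to the class that hydroxylates the epsilon ring on the way to lutein. CYP97A29 had 40.5, 36.0 and 39.4 FPKM in labelled line 207 and 23.8, 31.0 and 24.9 FPKM in the labelled siblings. The groups did not overlap, and the difference was modest, at a ratio of means of 1.45 and a log2 fold change of 0.53 ± 0.20 (SE; 95% interval 0.06 to 1.00; limma adjusted p = 0.143). The authors' deposited q-value for it is 0.11. CYP97C11 had 2.38, 4.57 and 6.60 FPKM in labelled line 207 and 8.72, 11.8 and 9.71 FPKM in the labelled siblings. Here every library labelled line 207 was the lower one, and the siblings averaged 2.23 times as much. The log2 fold change was -1.07 ± 0.46 (SE; 95% interval -2.16 to 0.01; limma adjusted p = 0.195), and the authors' deposited table carries a q-value of 1, its mark for a gene not tested.

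Summed by enzyme class, the di-iron hydroxylases exceeded the P450 hydroxylases in all 3 libraries labelled line 207, with log2 ratios of 0.92, 1.21 and 0.85. The same log2 ratio was -0.65, 0.15 and 1.01 in the labelled siblings, so that the groups overlapped through sibling replicate 3. The difference of 0.83 gave an exact two-sided permutation p = 0.3.

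**Figure D2:**
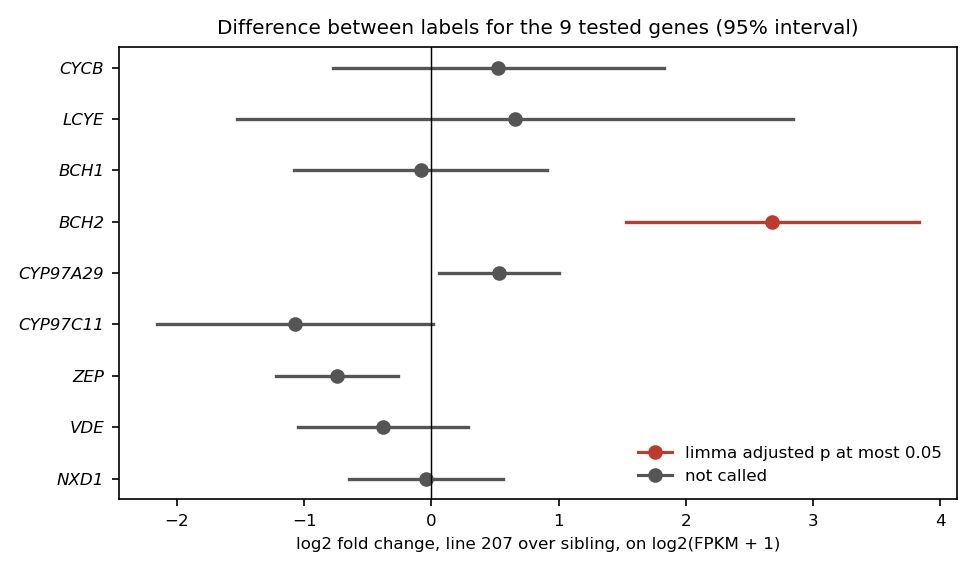
Log2 fold change of the 9 tested genes, labelled line 207 over labelled sibling, on the log2(FPKM + 1) scale, with 95% intervals from limma (n = 3 each) and the called gene in red. BCH2, at 2.68, stands apart from the others, which lie between -1.07 and 0.66.

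The lycopene cyclases were all at low levels. LCYB1 is the beta-cyclase of chloroplasts, CYCB is the chromoplast beta-cyclase behind the Beta and old-gold loci, and LCYE is the epsilon-cyclase behind the Delta locus. LCYB1 reached 1 FPKM in a single library and was not tested. It had 0.00149, 3.64 and 0.000297 FPKM in labelled line 207 and 0.205, 0.359 and 0.00285 FPKM in the labelled siblings. Such near-zero values do not show absence. HDS (Solyc11g069380), which makes an intermediate that all plastid carotenoids need, was itself listed below 0.01 FPKM in 5 of 6 libraries and at 9.40 FPKM in line 207 replicate 2.

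CYCB had 4.14, 2.11 and 1.37 FPKM in labelled line 207 and 1.62, 2.02 and 0.609 FPKM in the labelled siblings. The groups overlapped, and the log2 fold change of 0.52 had a 95% interval of -0.78 to 1.83 (limma adjusted p = 0.602). LCYE had 7.36, 4.10 and 4.47 FPKM in labelled line 207 and 11.5, 3.77 and 0.000264 FPKM in the labelled siblings. The siblings held both its highest and its lowest value. Its log2 fold change was 0.66 (95% interval -1.53 to 2.84; limma adjusted p = 0.701), and -0.32 without sibling replicate 3. That library had 70 tested genes below 0.01 FPKM that were at 3 FPKM or more in the other 5 libraries, LCYE among them. The corresponding count was 243, 180 and 80 in line 207 replicates 1 to 3, and 77 and 86 in sibling replicates 1 and 2.

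A further beta-cyclase outside the 10, described in the table as lycopene beta-cyclase 2 (Solyc10g079480), had 4.12, 4.19 and 3.09 FPKM in labelled line 207 and 3.89, 4.35 and 6.42e-05 FPKM in the labelled siblings (limma adjusted p = 0.617). Like LCYE, it was near 0 in sibling replicate 3. The log2 ratio of LCYE over LCYB1 plus CYCB, the balance between the ring types, was 0.70, -0.40 and 1.21 in labelled line 207 and 2.14, 0.50 and -0.69 in the labelled siblings. The spread inside each group was wider than the difference of -0.15 between them (exact two-sided permutation p = 1). CYCB made up 99.96%, 36.7% and 99.98% of LCYB1 plus CYCB in labelled line 207 and 88.8%, 84.9% and 99.5% in the labelled siblings (exact two-sided permutation p = 1).

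The enzymes of the epoxide cycle had lower values in labelled line 207. ZEP, zeaxanthin epoxidase, makes violaxanthin through antheraxanthin, and its loss underlies the high pigment 3 mutant of tomato. It had 32.6, 25.3 and 26.6 FPKM in labelled line 207 and 49.0, 41.1 and 53.3 FPKM in the labelled siblings. The groups were well apart, the highest line 207 value being 32.6 FPKM and the lowest sibling value 41.1 FPKM. The log2 fold change was -0.74 ± 0.20 (SE; 95% interval -1.22 to -0.27), which did not pass over all genes (limma adjusted p = 0.0639). It did pass when the test was limited to means of 10 FPKM or more (adjusted p = 0.0451), and the authors' deposited q-value for ZEP is 0.00152. VDE, violaxanthin de-epoxidase, runs the reverse reaction in strong light. It had 11.3, 17.5 and 18.8 FPKM in labelled line 207 and 19.7, 22.7 and 19.4 FPKM in the labelled siblings. Line 207 replicate 1 was the lowest, and the other 2 came close to the siblings. The log2 fold change was -0.38 (95% interval -1.05 to 0.29; limma adjusted p = 0.452).

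The log2 ratio of ZEP over VDE was 1.44, 0.50 and 0.48 in labelled line 207 and 1.27, 0.83 and 1.41 in the labelled siblings, and the groups overlapped (exact two-sided permutation p = 0.4). NXD1, known from tomato as a gene without which neoxanthin is missing, had 29.2, 19.9 and 18.2 FPKM in labelled line 207 and 22.7, 24.2 and 21.3 FPKM in the labelled siblings. By their ratio its means were the closest of the 10 genes, at 22.4 FPKM in labelled line 207 and 22.7 FPKM in the labelled siblings. The 95% interval of its log2 fold change ran from -0.65 to 0.56 (limma adjusted p = 0.933).

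The order of the members' levels differed between the labels mainly through BCH2. In labelled line 207 BCH2 came first, above 85.7% of all tested genes, and did not overlap with CYP97A29 behind it. CYP97A29, BCH1, ZEP, NXD1 and VDE followed, each overlapping with the next. VDE did not overlap with LCYE, after which LCYE, CYP97C11, CYCB and LCYB1 overlapped in turn. In the labelled siblings ZEP came first, above 83.7% of tested genes, followed by BCH1, CYP97A29, NXD1 and VDE, each overlapping with the next. VDE did not overlap with CYP97C11 below it, and BCH2 came seventh, above 43.2% of tested genes. The median tested gene was at 11.6 FPKM in either group.

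As a share of the summed FPKM of the 10 genes, BCH2 held 26.9 ± 1.33% in labelled line 207 and 4.84 ± 2.59% in the labelled siblings (SD, n = 3 each). ZEP held 13.7 ± 1.74% in labelled line 207 and 26.7 ± 4.39% in the labelled siblings. CYP97C11 held 2.22 ± 1.09% in labelled line 207 and 5.6 ± 0.771% in the labelled siblings. These shares are tied to each other, since a larger share of BCH2 lowers those of the rest. The sum itself was 206 ± 5.72 FPKM in labelled line 207 and 181 ± 21.3 FPKM in the labelled siblings.

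**Figure D3:**
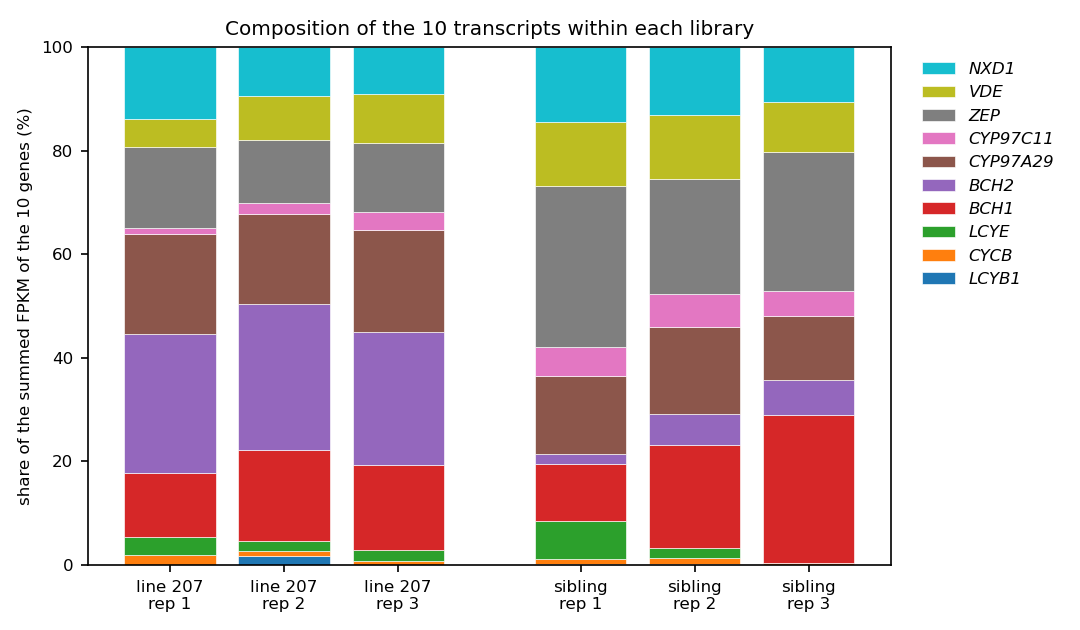
Share (%) of each of the 10 genes in their summed FPKM, as 1 stacked bar per library, with labelled line 207 left and labelled sibling right. The BCH2 band takes 25.7% to 28.3% in labelled line 207 and 1.89% to 6.75% in the labelled siblings.

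Likeness of profile was measured as the root mean square difference of mean-centred log2(FPKM + 1) values over the 6 libraries. BCH2 was 1.20 from its nearest member, CYP97A29. The other tested members lay between 0.35 and 0.87 from theirs, with CYP97A29 and NXD1 nearest to each other at 0.35 and CYP97C11 and VDE at 0.38. By this measure genes that vary little lie near each other whatever their direction. The groups did not overlap for CYP97A29 but overlapped for NXD1.

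Genes before the cyclases were mixed. In the upstream isoprenoid list, which supplies the precursor geranylgeranyl diphosphate, 1 of 10 tested genes passed, and it was lower. Over all tested genes 10.1% passed. The median log2 fold change of the list was -0.46, beside -0.09 for all tested genes. DXR, the reductoisomerase of the plastid pathway, had 35.1, 27.2 and 28.9 FPKM in labelled line 207 and 58.3, 76.5 and 49.3 FPKM in the labelled siblings (log2 fold change -0.98, limma adjusted p = 0.0397; q-value 0.000439 in the authors' deposited table). Leaving out any 1 of the 6 libraries ended its call (adjusted p from 0.0527 to 0.12). The kinase gene CMK had a log2 fold change of -0.94 (adjusted p = 0.0553), MCT, of the step before it, one of -0.77 (adjusted p = 0.0896), and DXS2, a synthase of the first step, one of -1.53 (adjusted p = 0.129). By the authors' deposited q-values CMK passed (0.000439), as did DXS1 of the same list (0.0354), while MCT (0.145) and DXS2 (0.115) did not.

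From phytoene to lycopene, 1 of 5 tested genes passed, also lower, beside 10.1% of all tested genes. The list median was 0.07. PSY2, a phytoene synthase, stood at 0.0117 FPKM or less in labelled line 207 and at 22.9, 5.17 and 24.8 FPKM in the labelled siblings (limma adjusted p = 0.0156). It did not pass in the authors' deposited table, where its q-value is 0.134. Its limma call was lost without line 207 replicate 2 or 3 or sibling replicate 3 (adjusted p = 0.0534, 0.0505 and 0.0523), and with values under 0.01 FPKM treated as missing (adjusted p = 0.0597). The phytoene desaturase gene PDS had 40.7, 30.2 and 40.4 FPKM in labelled line 207 and 24.0, 7.34 and 13.9 FPKM in the labelled siblings (log2 fold change 1.37, limma adjusted p = 0.0843). It passed without sibling replicate 1 (limma adjusted p = 0.0385) and in the authors' deposited table (q-value 0.0397). CRTISO, the carotenoid isomerase gene, had a log2 fold change of 1.31 (adjusted p = 0.299) and ZDS, a desaturase gene, one of 0.07 (adjusted p = 0.886).

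Among the genes that act on the products, 2 of 5 tested cleavage and ABA genes passed, 1 in each direction. Over all tested genes 10.1% passed, and a list of 5 is too short to be compared with that share. The list median was 0.25. CCD4B, a carotenoid cleavage dioxygenase, had 7.41, 5.74 and 5.54 FPKM in labelled line 207 and 48.9, 47.3 and 23.9 FPKM in the labelled siblings. All 3 libraries labelled line 207 were lower than every labelled sibling. The siblings averaged 6.42 times as much (log2 fold change -2.45 ± 0.36 (SE), limma adjusted p = 0.00963), and the call was kept whichever library was left out. The authors' deposited q-value for it is 0.000439. NCED1 cleaves 9-cis-epoxycarotenoids toward ABA. Its levels were 97.0, 113 and 181 FPKM in labelled line 207 and 5.78, 7.75 and 11.3 FPKM in the labelled siblings. NCED1 was higher in labelled line 207 (log2 fold change 3.81, limma adjusted p = 0.00226), and the call was kept whichever library was left out. It did not pass in the authors' deposited table (q-value 0.0785). NCED2 had a log2 fold change of 1.40 (limma adjusted p = 0.0747) and passed in the authors' deposited table (q-value 0.00472). CCD1A had a log2 fold change of 0.25 (limma adjusted p = 0.458) and FLACCA one of -0.51 (adjusted p = 0.72).

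None of the 3 genes of esterification and storage passed in limma at an adjusted p of 0.05, beside 10.1% of all tested genes. For 2 of them the groups did not overlap, beside 33.2% of all tested genes. CHRC, for a plastid lipid-associated protein that coats carotenoid-storing fibrils, had 288, 325 and 278 FPKM in labelled line 207 and 46.7, 129 and 164 FPKM in the labelled siblings. As with BCH2, the groups were apart and sibling replicate 1 was the lowest. Its limma adjusted p was 0.0696, and 0.024 without sibling replicate 1, and the authors' deposited q-value is 0.000439. PYP1, whose product esterifies xanthophylls in tomato petals, had 12.8, 25.9 and 21.9 FPKM in labelled line 207 and 6.09, 0.000669 and 4.78 FPKM in the labelled siblings (limma adjusted p = 0.0907; q-value 0.0915 in the authors' deposited table). Its log2 fold change of 2.56 became 1.67 without sibling replicate 2, the library near 0. OR, a DnaJ-like protein of carotenoid-storing plastids, overlapped between the groups, with a log2 fold change of 0.28 (adjusted p = 0.67). The list median was 1.56.

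**Figure D4:**
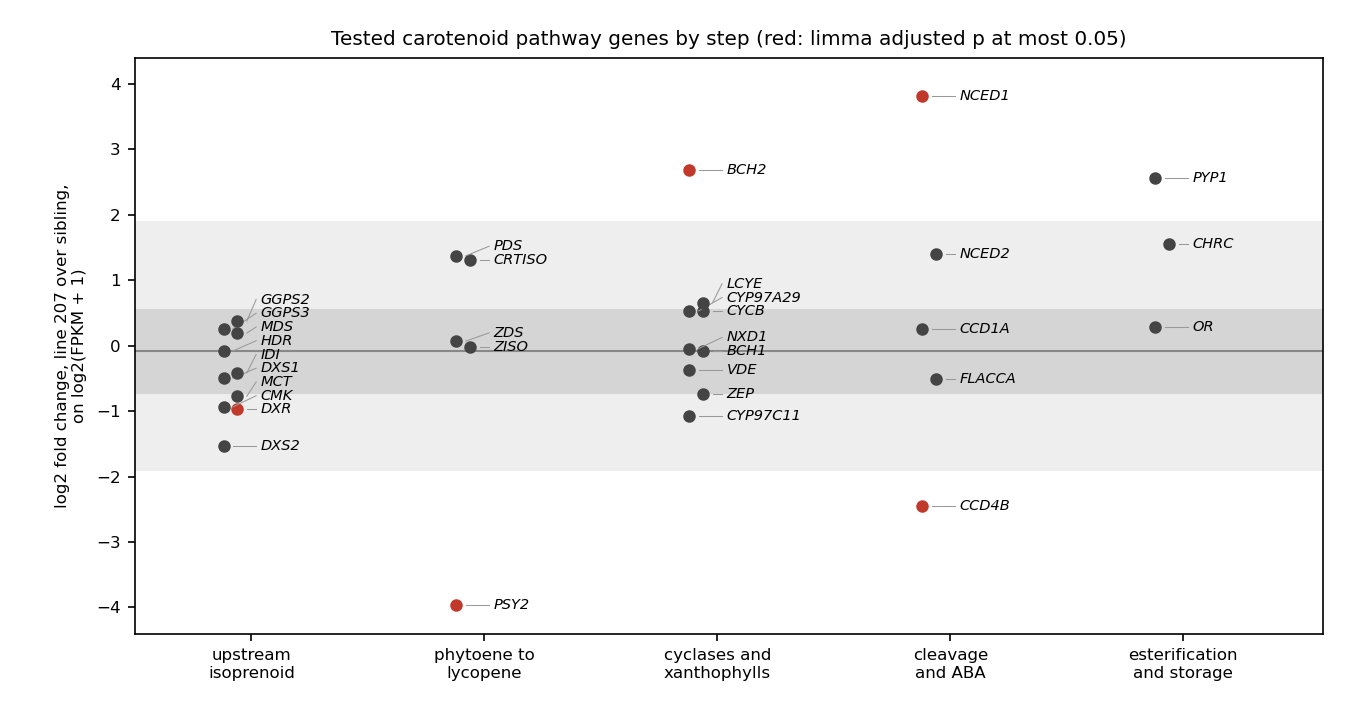
Log2 fold change, labelled line 207 over labelled sibling, on the log2(FPKM + 1) scale, for each tested gene by step of the pathway, with called genes in red. Grey bands span the 5th to 95th (light, -1.91 to 1.89) and 25th to 75th (dark, -0.73 to 0.54) percentiles of all tested genes, and the line marks their median of -0.09; NCED1, BCH2 and PYP1 lie above the light band and CCD4B and PSY2 below it, PYP1 only with sibling replicate 2 included (1.67 without it).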

How the data were processed

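The authors deposited a single table of genes by libraries. Its header names no unit, and FPKM was taken from the non-integer values and from Cufflinks, which stands beside TopHat 1.3.2 in the list of tools, per the submitters' processing notes. Genome build, annotation and library scaling are not stated there. A p-value and a q-value per gene, both 1 for untested genes, are also in the deposited table. Of 34727 rows, 4 without values were left out. A stranded mRNA kit is named per the labels' protocols. Groups and replicate numbers come from the sample titles, and the series design calls the replicates biological.

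The 15766 genes with at least 1 FPKM in 3 or more libraries were tested with limma 3.58.1 (R 4.3.3) on log2(FPKM + 1) with a trended prior, without a block. This scale understates changes of low genes. P-values were adjusted by Benjamini-Hochberg over all tested genes, and the code was tested on simulated data. Ratios within a library were compared by exact permutation. Log2 ratios add 1 to each sum.

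The members and lists were chosen with earlier results of these data known. Symbols come from the member list and from recall of the literature. Identifiers whose description names another protein were dropped (SITIENS and WUS). Named were all members, called genes of each list and up to 3 more with the smallest p, and the 3 genes most like a called member. The reference gene table (S. pimpinellifolium LA1246) matched 0 identifiers, so no coordinates or sequences are given. FPKM estimates can share reads between similar genes such as BCH1 and BCH2. Alternatives were other pseudocounts, filters, scalings and priors, the replicate block, the authors' q-values and each library left out.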

Additional observations from a re-analysis of the deposited data

How the results depend on the processing

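BCH2 stayed positive in every alternative run, at log2 fold changes from 2.11 to 3.04. The members called numbered 1 in the main test. They numbered 0 with no filter on low values, 2 (BCH2 higher and ZEP lower) with a mean of at least 10 FPKM, with an adjusted p of at most 0.1 and by the authors' deposited q-values, and 0 to 1 with each library left out. Of all tested genes, 1585 were called, 894 with the replicate block, 2723 at an adjusted p of at most 0.1, 2722 by the authors' q-values, and 706 to 1219 with each library left out, where fewer samples also raise p. Same-numbered libraries showed no shared deviation from their group means, with correlations of 0.00, -0.01 and -0.01. Such values cannot show whether the samples were collected or prepared in pairs. With the block, BCH2 kept its call (adjusted p = 0.0414).

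The upstream isoprenoid list had 0 called with no filter, without a trended prior or with the replicate block, 2 with a mean of at least 10 FPKM, and 0 to 1 with a library left out. The phytoene to lycopene list had 0 called with a mean of at least 10 FPKM and with values under 0.01 FPKM treated as missing (chosen after seeing the data), and 0 to 2 with a library left out. The storage list had 1 called with a pseudocount of 5 or quantile normalization, and 0 to 1 with a library left out. The cleavage list had 2 called whichever library was left out.

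Signs changed only for results that did not pass. LCYE went to -0.32 with values under 0.01 FPKM treated as missing, and its range with a library left out was -0.32 to 1.50. That range was -0.54 to 0.29 for BCH1, -0.24 to 0.084 for NXD1, -0.11 to 0.21 for ZDS and -0.090 to 0.49 for OR. The log2 ratio of LCYE over LCYB1 plus CYCB differed by 0.52 with a pseudocount of 0.1, and by -0.82 to 0.60 with a library left out. CYCB's percentage differed by -22.8 to 8.9 points with a library left out. The cause of these changes was not tested. Read totals are unknown, and values near 0 are the least precise in the shallowest libraries, line 207 replicates 1 and 2 (relative depth 0.386 and 0.5). The LCYE value near 0 was in sibling replicate 3, at a relative depth of 0.856. Whether depth had a part in it was not tested.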

Other observations

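A gene outside the 10 carries a lycopene beta and epsilon cyclase domain in its deposited annotation although its description reads choline dehydrogenase (Solyc00g156980). It had 4.18, 3.20 and 6.19 FPKM in labelled line 207 and 16.0, 12.1 and 7.44 FPKM in the labelled siblings. The groups did not overlap, and the log2 fold change of -1.20 did not pass (limma adjusted p = 0.149). In all, 9 genes beyond the lists have a carotenoid term in the deposited annotation, and 4 of them were tested in limma. Of these 0 passed, beside 10.1% of all tested genes. In the authors' deposited values only Solyc00g156980 was tested among the 9, and it did not pass (q-value 0.342). A gene described as violaxanthin de-epoxidase-related (Solyc04g051610) had 10.3, 1.39e-21 and 7.81 FPKM in labelled line 207 and 0.784, 3.81 and 5.46 FPKM in the labelled siblings (adjusted p = 0.894). The carotenoid isomerase-like gene Solyc05g010180 ranged from 0.692 to 6.53 FPKM in labelled line 207 and from 0.00483 to 7.40 FPKM in the labelled siblings (adjusted p = 1).

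The 3 genes whose profile over the 6 libraries was nearest to that of BCH2 were described as an undecaprenyl pyrophosphate synthase (Solyc10g085140), zinc finger protein CONSTANS-LIKE 5 (Solyc09g090650) and a zinc-binding family protein (Solyc08g076860), at root mean square log2 differences of 0.15, 0.15 and 0.17. Solyc10g085140 had 231, 219 and 177 FPKM in labelled line 207 and 10.7, 35.9 and 49.5 FPKM in the labelled siblings. Solyc08g076860 had 275, 325 and 280 FPKM in labelled line 207 and 23.6, 57.1 and 97.0 FPKM in the labelled siblings. Both had their lowest value in sibling replicate 1, as BCH2 did. Solyc09g090650 had 10.003, 12.6 and 10.6 FPKM in labelled line 207, and in the labelled siblings it was listed at 0 in replicate 1 and at 1.90 and 1.76 FPKM in replicates 2 and 3. These genes were picked for their likeness to a called gene out of 15766, so their own differences are a description and not a test.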
